A study of Canis lupus familiaris with 6 samples.

Results

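A set of 45 genes of mitosis was examined in the RNA-Seq data of CPEK cells, a canine epidermal keratinocyte line. The genes were taken by symbol from the gene-level table and cover mitotic kinases, checkpoint, kinetochore, spindle and condensin genes, together with proliferation markers and cyclins. All 45 were found among the 35993 genes of the table, and all 45 were among the 14708 genes that passed the filter on low counts. Their counts in single libraries ranged from 355 to 25340.

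The 3 dCAMP libraries came from wild-type CPEK cells exposed directly to cold atmospheric microwave plasma (CAMP), an ionized gas generated from argon, for 30 s. The 3 gas libraries came from wild-type cells exposed to the same gas without plasma. All 6 cultures were grown in DMEM with serum, penicillin and streptomycin, received new medium 15 min after the exposure, and were collected 24 h later. CPEK is 1 cell line, and the labels do not say whether libraries of a group came from separate experiments, so p-values measure only the spread between these libraries.

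In mitosis, cyclin B and CDK1 drive entry, condensin compacts the chromosomes, and kinetochores attach them to the spindle. The spindle checkpoint holds back the anaphase-promoting complex until attachment is complete. The complex, with its cofactor CDC20, then marks securin for destruction and frees separase, which opens the cohesin rings that join sister chromatids. Most of the mRNAs of these proteins are periodic and peak in G2 and mitosis, and in the epidermis they mark the dividing cells of the basal layer. In a culture, fewer cells in mitosis and less mRNA per cell cannot be told apart by bulk RNA-Seq.

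The libraries held 43084921 to 54082634 counts. The 3 gas libraries differed more from one another than the 3 dCAMP libraries did. Divided by its degrees of freedom, the chi-square statistic of a pair of replicates would be near 1 if sampling noise were the only source of difference. It was 79.6 to 297 for pairs of gas libraries and 6.26 to 9.69 for pairs of dCAMP libraries. Gas library 1 (gas 1) stood farthest from the dCAMP libraries, with Pearson's r of 0.974 to 0.976 on log2(FPKM + 1) across all genes, and gas 3 lay nearest, with r of 0.998; r across genes was not tested. All 12 keratinocyte markers were detected in the cells, with a summed level of 51517 to 65406 CPM (counts relative to the library size after TMM normalization). The summed levels of the markers of other cell types were 6.51 to 7.10 CPM for fibroblasts (3 of 8 at 0 in every library), 7.12 to 11.4 CPM for melanocytes (2 of 6 at 0), 1.42 to 3.03 CPM for immune cells (2 of 5 at 0) and 15.6 to 24.7 CPM for endothelial cells (1 of 4 at 0).

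Many of the mitosis genes showed 1 of 2 patterns. The first was a lower level in dCAMP-treated cells than in every gas library, of modest size, which included CDC20, the securin and separase genes PTTG1 and ESPL1, PLK1, AURKB and its partners INCENP, CDCA8 and BIRC5, and the transcription factors MYBL2 and FOXM1. The second was a wide spread among the gas libraries, with gas 1 far below the dCAMP libraries and gas 3 at their level, which included the condensin genes SMC2 and SMC4, CDK1, TOP2A, and many kinetochore and spindle genes. MKI67, CDC25C, AURKA, CENPA, PRC1 and NCAPH showed neither, with groups that overlapped and gas 1 near the dCAMP mean.

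Compared with the gas control by edgeR's quasi-likelihood test, 13 of the 45 genes (28.9%) were lower in dCAMP-treated cells with an unadjusted p under 0.05, beside 13.9% of all genes tested. None of the 45 was higher with such a p (0 of 45), beside 6.81% of all genes. The log2 fold changes of the 13 genes lay between -0.60 and -0.26, so that 0 of the 45 combined such a p with a change of 2-fold or more, beside 1.09% of all genes. After Benjamini-Hochberg adjustment over all genes tested, 0 of the 45 genes and 0% of all genes had an edgeR adjusted p under 0.05. The adjusted p of the 13 genes was 0.221 to 0.241. DESeq2 gave an adjusted p under 0.05 to 3 of the 45, all lower, namely CDCA8, CDC20 and MYBL2 (adjusted p = 0.0221, 0.0409 and 0.0496), beside 0.75% of all genes with an adjusted p. In 14 of the 45 genes every dCAMP library lay below every gas library, beside 20.9% of all genes, and in 0 of the 45 every dCAMP library lay above, beside 19% of all genes. The 14 are the 13 genes and CCNB2.

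**Figure D1:**
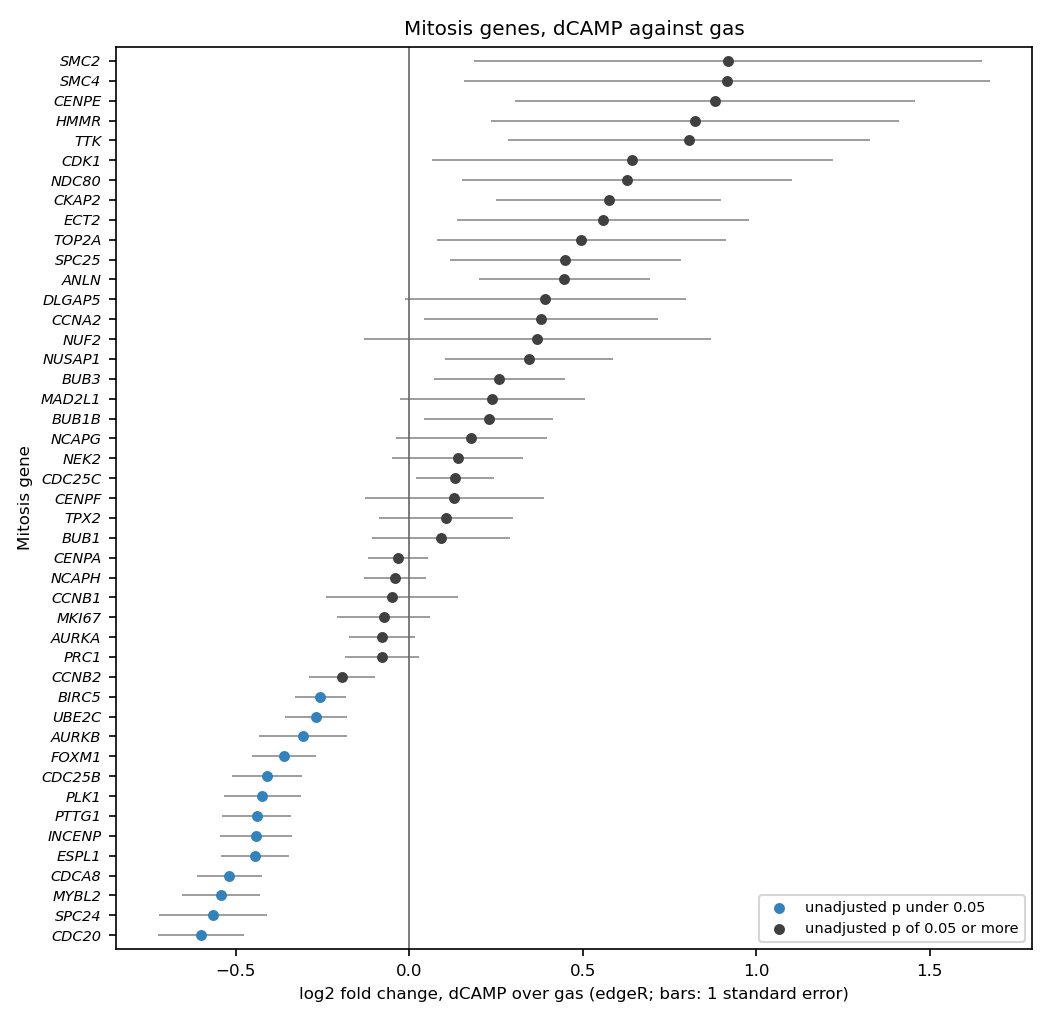
Each point is the log2 fold change of 1 of the 45 mitosis genes in dCAMP-treated cells over the gas control (horizontal axis), with a bar of 1 standard error on either side; blue points have an unadjusted p under 0.05 in edgeR. The 13 blue points lie between -0.60 and -0.26 with short bars, and the points above 0 reach 0.92 with bars of up to 0.76.

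The fold changes of the 45 genes were spread to both sides of 0. The log2 fold change was above 0 in 25 genes and below 0 in 20, with a median of 0.13, beside a median of 0.03 over all genes tested. Among the 32 genes with no call, 25 were above 0, from 0.09 to 0.92, with standard errors of up to 0.76. The remaining 7 (MKI67, CCNB1, CCNB2, AURKA, CENPA, PRC1 and NCAPH) were below 0.

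By role, the counts of lower genes were read against the 13.9% of all genes, in groups of 4 to 9 genes, and differences between the groups were not tested. Of the 7 genes of mitotic kinases and the chromosomal passenger complex 5 had an unadjusted p under 0.05, and their median log2 fold change was -0.31. The count was 4 of 9 for checkpoint genes, cofactors of the anaphase-promoting complex, securin and separase (median 0.09), and 2 of 4 for proliferation markers and transcription factors (median -0.22). It was 1 of 6 for cyclins, CDK1 and the CDC25 phosphatases (median 0.04), and 1 of 7 for kinetochore and centromere genes (median 0.37). These last shares were near that of all genes. It was 0 of 8 for spindle and cytokinesis genes (median 0.42) and 0 of 4 for condensin genes (median 0.55).

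MKI67 (gene ID 100686578, chr28:36920679-36939336 in CanFam3.1), the gene of the proliferation marker Ki-67, had levels of 52.5, 50.1 and 66.9 CPM in gas 1, 2 and 3, and of 52.8, 56.5 and 51.8 CPM in dCAMP 1, 2 and 3. The gas library with the highest level was gas 3, and the groups overlapped. The mean level was 56.5 ± 9.12 CPM in gas and 53.7 ± 2.49 CPM in dCAMP (SD, n = 3 each), and the log2 fold change was -0.07 ± 0.13 (SE). TOP2A, which encodes the topoisomerase that untangles sister chromatids, had a log2 fold change of 0.50 ± 0.42 (SE), with 91.0 CPM in gas 1, 322 CPM in gas 3 and 287 to 331 CPM in dCAMP.

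MYBL2 (gene ID 477232, chr24:31339570-31382626), which encodes the transcription factor B-Myb that acts on genes of late cell cycle phases, was measured at 507, 446 and 392 CPM in the gas libraries and at 296, 328 and 299 CPM in the dCAMP libraries. All 3 dCAMP libraries lay below all 3 gas libraries. Its mean level was 448 ± 57.9 CPM in gas and 308 ± 17.8 CPM in dCAMP (SD, n = 3 each). Its log2 fold change was -0.54 ± 0.11 (SE), with an edgeR adjusted p of 0.221. FOXM1, the gene of the forkhead factor that works with B-Myb, was also lower in every dCAMP library (37.4 to 39.5 CPM) than in any gas library (46.6 to 52.1 CPM). Its log2 fold change was -0.36 ± 0.09 (SE), and its locus overlaps RHNO1.

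The cyclin genes, CDK1 and the CDC25 genes differed among themselves. CCNA2 (gene ID 483845, chr19:18317866-18324592), the gene of cyclin A2, had levels of 36.8, 69.5 and 99.5 CPM in gas 1, 2 and 3 and of 81.7, 97.8 and 88.4 CPM in dCAMP 1, 2 and 3. Gas 1 and gas 2 lay below the dCAMP libraries and gas 3 above them. Its log2 fold change was 0.38 ± 0.34 (SE), and its locus overlaps BBS7 and EXOSC9. CDK1, the kinase that cyclin B activates, had 16.6 CPM in gas 1, 74.9 CPM in gas 2, 100 CPM in gas 3 and 91.9 to 113 CPM in dCAMP, and its log2 fold change was 0.64 ± 0.58 (SE). The cyclin B genes CCNB1 and CCNB2 had log2 fold changes of -0.05 ± 0.19 and -0.19 ± 0.10 (SE). CDC25B, a phosphatase that removes the inhibitory phosphates of CDK1, had an unadjusted p under 0.05, with 209 to 223 CPM in dCAMP, 256 to 320 CPM in gas, and a log2 fold change of -0.41 ± 0.10 (SE). CDC25C, of the same family, had 10.2 to 11.6 CPM in gas and 11.6 to 12.9 CPM in dCAMP, and its groups overlapped.

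PLK1 (gene ID 489971, chr6:22165338-22176847), which encodes the kinase that acts from centrosome maturation to cytokinesis, was measured at 238, 204 and 184 CPM in the gas libraries and at 153, 161 and 152 CPM in the dCAMP libraries. The groups did not overlap, and gas 3 was the gas library nearest to dCAMP. This gave a log2 fold change of -0.42 ± 0.11 (SE) with an edgeR adjusted p of 0.221. The locus overlaps ERN2.

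The chromosomal passenger complex is made of the kinase Aurora B (AURKB), its scaffold INCENP, survivin (BIRC5) and borealin (CDCA8), and corrects faulty attachments of chromosomes to the spindle. All 4 genes of the complex were lower in dCAMP, with groups that did not overlap, beside 20.9% of all genes tested. CDCA8 (gene ID 608164, chr15:4796980-4809914) had the smallest p of the 45 genes. It had 166, 157 and 142 CPM in the gas libraries and 106, 115 and 104 CPM in the dCAMP libraries, a mean of 155 ± 12.3 CPM against 108 ± 5.81 CPM (SD, n = 3 each). Its log2 fold change was -0.52 ± 0.09 (SE), with an unadjusted p of 0.0013 in edgeR. INCENP, BIRC5 and AURKB had log2 fold changes of -0.44 ± 0.10, -0.26 ± 0.07 and -0.31 ± 0.13 (SE). AURKB had the largest p of the 13 genes, with 53.2 CPM in gas 3 beside 52.9 CPM in dCAMP 2, and its locus overlaps annotated tRNA genes. The other kinase genes AURKA and NEK2 had log2 fold changes of -0.08 ± 0.09 and 0.14 ± 0.19 (SE), and their groups overlapped.

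None of the spindle checkpoint genes of the set had an unadjusted p under 0.05 (0 of 5), beside 20.7% of all genes tested. So few genes cannot tell this count from that share. Their log2 fold changes lay above 0 with all 6 libraries. BUB1 (gene ID 100682599, chr17:35208989-35252296), the gene of a checkpoint kinase, had 54.4, 72.0 and 92.5 CPM in gas 1, 2 and 3, and 75.2, 85.4 and 72.6 CPM in dCAMP 1, 2 and 3. The dCAMP libraries lay inside the range of the gas libraries, and the log2 fold change was 0.09 ± 0.20 (SE). The sign turned in several alternatives, for example to -0.10 without gas 1. The checkpoint genes BUB1B, BUB3 and MAD2L1 had log2 fold changes of 0.23 to 0.26, and TTK, the gene of the kinase MPS1 that starts the checkpoint signal, one of 0.81 ± 0.52 (SE). In each of these 4 genes gas 1 was the lowest library.

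CDC20 (gene ID 100855774, chr15:16803204-16806935), which encodes the activator of the anaphase-promoting complex that the checkpoint inhibits, had the lowest log2 fold change of the 45 genes. Its levels were 215, 201 and 172 CPM in the gas libraries and 124, 145 and 119 CPM in the dCAMP libraries. The groups did not overlap, and the means were 196 ± 21.8 and 129 ± 14.1 CPM (SD, n = 3 each). The fitted log2 fold change was -0.60 ± 0.12 (SE), with an edgeR adjusted p of 0.221. UBE2C, the ubiquitin-conjugating enzyme of the complex, had a log2 fold change of -0.27 ± 0.09 (SE).

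PTTG1 (gene ID 479307, chr4:50301868-50309636), the securin gene, had 75.8, 71.1 and 66.8 CPM in the gas libraries and 50.5, 56.9 and 50.1 CPM in the dCAMP libraries. ESPL1 (gene ID 607879, chr27:1911179-1934446), the gene of separase, the protease that securin holds, had 111, 102 and 95.9 CPM in the gas libraries and 76.7, 79.8 and 70.9 CPM in the dCAMP libraries. In both genes the groups did not overlap, and the log2 fold change was -0.44 ± 0.10 (SE).

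The kinetochore genes were split in the same way. NDC80 (gene ID 480190, chr7:69268218-69317126) encodes a subunit of the complex that binds microtubules, as do NUF2, SPC24 and SPC25. NDC80 had 9.96, 29.2 and 42.8 CPM in gas 1, 2 and 3 and 38.1, 44.4 and 44.3 CPM in dCAMP 1, 2 and 3. Gas 1 and gas 2 lay below the dCAMP libraries and gas 3 within their range. Its log2 fold change was 0.63 ± 0.47 (SE), and its locus overlaps METTL4. NUF2 and SPC25 had log2 fold changes of 0.37 ± 0.50 and 0.45 ± 0.33 (SE), also with gas 1 lowest.

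SPC24 (gene ID 611174, chr20:50099821-50107626), the remaining subunit, differed from its partners. It had 40.2, 41.5 and 31.1 CPM in the gas libraries and 23.7, 28.9 and 23.7 CPM in the dCAMP libraries. The groups did not overlap, and the log2 fold change was -0.57 ± 0.16 (SE) with an edgeR adjusted p of 0.221. The difference between SPC24 and the other subunits of the complex was not tested.

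CENPE (gene ID 100855663, chr32:24447373-24530407), which encodes a kinesin that carries chromosomes to the spindle equator, had 11.1, 29.9 and 66.9 CPM in gas 1, 2 and 3 and 64.5, 70.2 and 64.3 CPM in dCAMP 1, 2 and 3. Gas 1 was 6.04-fold below gas 3, which lay within the range of the dCAMP libraries. With a log2 fold change of 0.88 ± 0.58 (SE), CENPE was not called. CENPF and CENPA, the gene of the centromeric histone H3 variant, had log2 fold changes of 0.13 ± 0.26 and -0.03 ± 0.09 (SE).

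**Figure D2:**
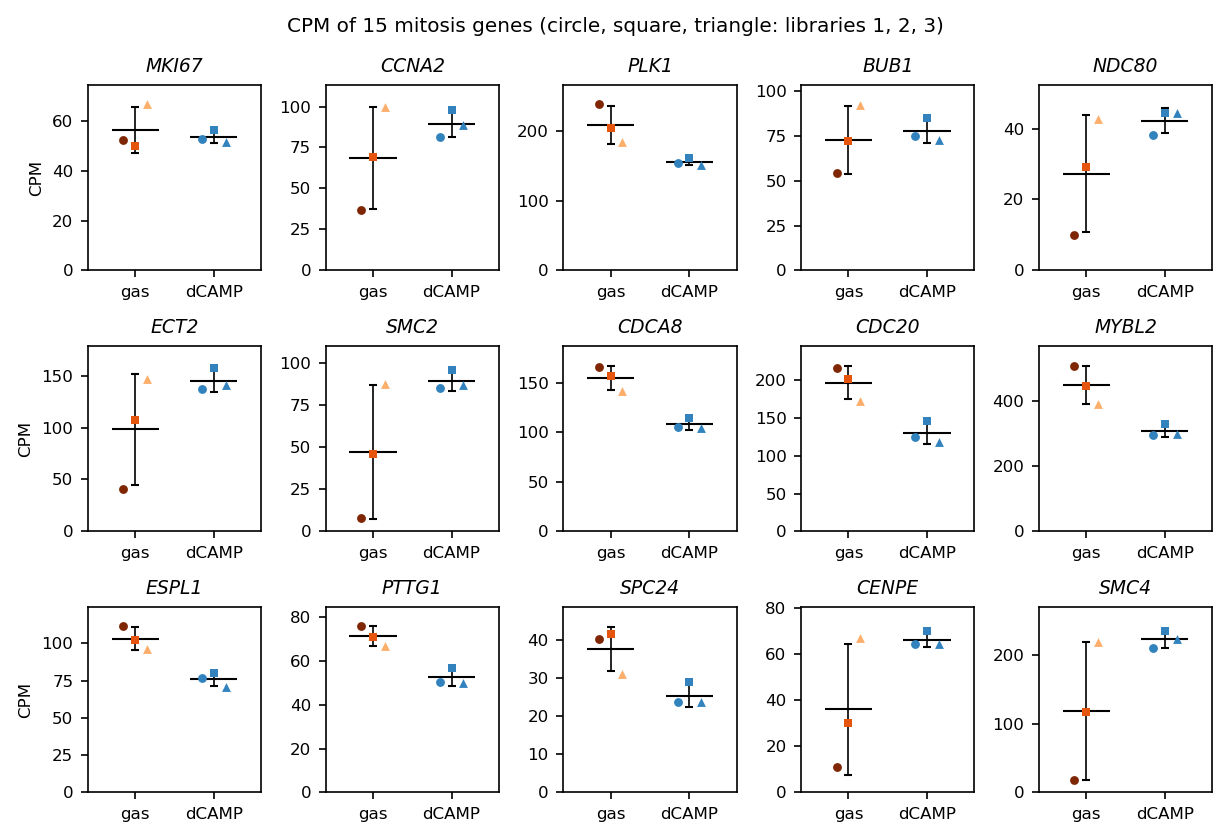
Normalized level in CPM (vertical axis, from 0) of 15 mitosis genes in the gas libraries (brown to light orange) and the dCAMP libraries (blue), with the mean and SD of each group (n = 3). In CDC20, CDCA8, MYBL2, PLK1, PTTG1, ESPL1 and SPC24 the gas libraries all lie above the dCAMP libraries, and in SMC2, SMC4, CENPE, NDC80 and ECT2 gas 1 is far below and gas 3 at the level of dCAMP.

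None of the spindle and cytokinesis genes had an unadjusted p under 0.05 (0 of 8), beside 20.7% of all genes tested. The group is too small to tell this count from that share. In 7 of the 8 the log2 fold change was above 0. ECT2 (gene ID 488172, chr34:36897441-36958501), the activator of RhoA at the cleavage furrow, had 41.0, 107 and 147 CPM in gas 1, 2 and 3 and 137, 157 and 141 CPM in dCAMP 1, 2 and 3. The mean of the gas libraries was 98.4 ± 53.5 CPM (SD, n = 3), and gas 3 lay within the range of the dCAMP libraries. This gave a log2 fold change of 0.56 ± 0.42 (SE). ANLN, which encodes anillin of the contractile ring, had the highest level of the 8 per length, 88.1 ± 6.98 FPKM (fragments scaled to transcript length and to the mapped reads) in dCAMP (SD, n = 3), and a log2 fold change of 0.45 ± 0.25 (SE). HMMR and DLGAP5, which encode spindle-associated proteins, had log2 fold changes of 0.82 ± 0.59 and 0.39 ± 0.41 (SE). PRC1, which bundles the microtubules of the central spindle, was the 1 gene of the 8 below 0, at -0.08 ± 0.11 (SE).

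The 2 core ATPase genes of condensin had the largest spread among the gas libraries. SMC2 (gene ID 481637, chr11:60091728-60155295) had 7.80, 46.2 and 87.7 CPM in gas 1, 2 and 3 and 85.0, 96.0 and 87.2 CPM in dCAMP 1, 2 and 3. SMC4 (gene ID 478679, chr34:26455630-26495392), its partner, had 17.6, 118 and 219 CPM in gas and 211, 235 and 223 CPM in dCAMP. In both genes gas 1 was more than 10-fold below gas 3 (11.2-fold for SMC2 and 12.4-fold for SMC4), and gas 3 lay within the range of the dCAMP libraries. The coefficients of variation among the gas libraries were 84.6% for SMC2 and 85.2% for SMC4. The log2 fold changes of 0.92 ± 0.73 and 0.92 ± 0.76 (SE) were the largest of the 45 and had large standard errors. Neither gene was called, with edgeR adjusted p of 0.412 and 0.427. The condensin I subunit genes NCAPG and NCAPH had log2 fold changes of 0.18 ± 0.22 and -0.04 ± 0.09 (SE). The SMC4 locus holds the microRNA genes MIR15B and MIR16-2.

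Per length, the levels of the 45 genes spanned a wide range. The mean level in gas was highest for BIRC5 (207 ± 8.31 FPKM), UBE2C (178 ± 12.2 FPKM) and MYBL2 (146 ± 21.7 FPKM, SD, n = 3 each) and lowest for CENPE (3.70 ± 2.90 FPKM) and SMC2 (4.39 ± 3.69 FPKM). The median over the 13 lower genes was 75.4 FPKM in gas and 55.4 FPKM in dCAMP, and over the other 32 genes 22.9 FPKM in gas and 30.1 FPKM in dCAMP.

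The order of the gas libraries differed among the genes, with 1 order more frequent than the others. In 26 of the 45 genes (57.8%) gas 1 was the lowest and gas 3 the highest gas library, beside 36.5% of all genes tested. In 10 of the 45 (22.2%) the order was the opposite, beside 36.3% of all genes, and all 10 were among the 13 lower genes. In 28 of the 45 (62.2%) gas 1 was the farthest of the gas libraries from the dCAMP mean and gas 3 the nearest, beside 60.2% of all genes. This share was near that of all genes.

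**Figure D3:**
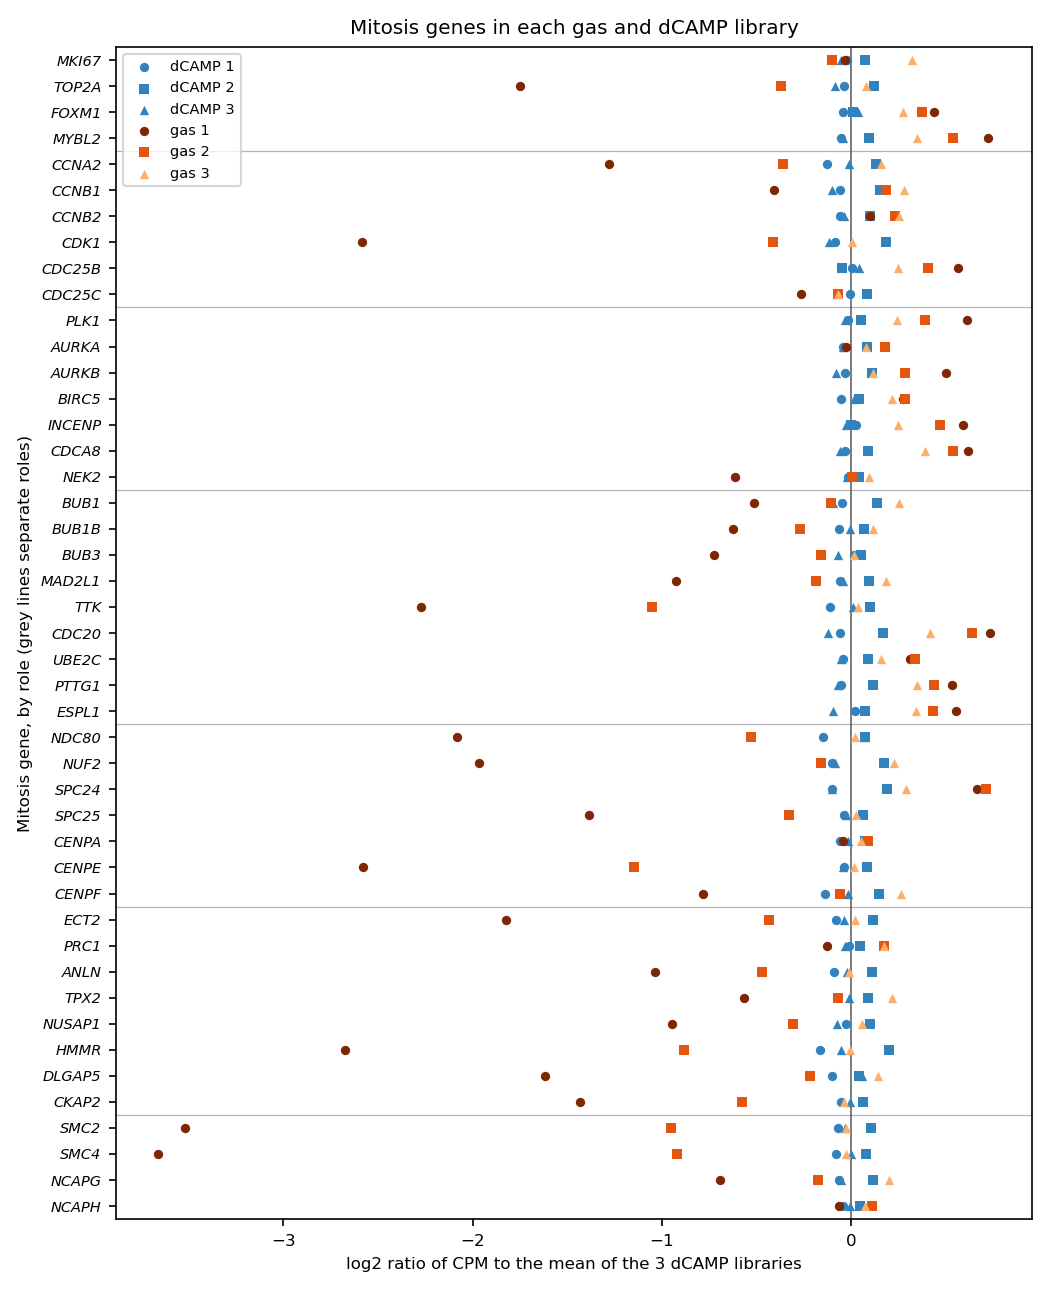
Level of each of the 45 mitosis genes (rows, grouped by role) in each library, as the log2 ratio of its CPM to the mean CPM of the 3 dCAMP libraries (horizontal axis). The dCAMP libraries (blue) lie near 0 and gas 3 (light orange triangles) within 0.42 of it, while gas 1 (dark brown circles) reaches -3.66 in SMC4 and 0.73 in CDC20.

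The distance of gas 1 was large in 1 direction. In 15 of the 45 genes (33.3%) gas 1 was more than 2-fold below the dCAMP mean, beside 20.1% of all genes tested. These were TOP2A, CCNA2, CDK1, TTK, NDC80, NUF2, SPC25, CENPE, ECT2, ANLN, HMMR, DLGAP5, CKAP2, SMC2 and SMC4. Their median log2 ratio to the dCAMP mean was -1.97 in gas 1, -0.47 in gas 2 and 0.02 in gas 3. In the 13 lower genes the medians were 0.56, 0.43 and 0.27 for gas 1, gas 2 and gas 3, so that gas 3 was above the dCAMP mean in these genes too, though nearest to it. No gene of the 45 was more than 2-fold from the dCAMP mean in gas 3 (0 of 45), beside 346 of all 14708 genes tested. A set of 45 genes cannot tell this count from that share. In 17 of the 45 (37.8%) gas 3 lay within the range of the dCAMP libraries, beside 35.6% of all genes. The median coefficient of variation of the 45 genes was 24.9% among the gas libraries and 5.81% among the dCAMP libraries, beside 16.6% and 5.89% over all genes.

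Since the gas libraries differed so widely, each comparison was repeated with 1 library left out. Without gas 3, the 13 lower genes all had an edgeR adjusted p under 0.05 (13 of 45), beside 18.1% of all genes tested in that direction. The 13 were chosen by p in these same libraries, and in each of them gas 3 was the gas library nearest to the dCAMP mean. Leaving out gas 3 therefore widened their difference, and these calls add no separate support. In the same fit 4 genes were higher with an adjusted p under 0.05, beside 15% of all genes. They were TTK, CENPE, ANLN and CKAP2, with log2 fold changes of 1.49, 1.65, 0.68 and 0.90 and adjusted p of 0.0312, 0.0341, 0.0356 and 0.0425. Without gas 1, 15 genes were lower with an unadjusted p under 0.05, beside 11.8% of all genes. They were 12 of the 13 genes, without AURKB, together with CCNB1, CCNB2 and PRC1.

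The sizes of the 2 patterns depended on the gas libraries to a different extent. The log2 fold change of CDC20 was -0.55 without gas 1 and -0.73 without gas 3, that of CDCA8 -0.49 and -0.63, and that of MYBL2 -0.46 and -0.68. All 13 genes stayed below 0 in each of the fits with 1 library left out. In these genes every dCAMP library lay below every gas library, so leaving out 1 library could hardly change the sign. For SMC2 the value was 0.40 without gas 1 and 1.68 without gas 3, for CENPE 0.44 and 1.65, and for CDK1 0.17 and 1.08. In 18 of the 45 genes, none of them among the 13, the value stayed above 0 in each of the fits with 1 library left out. In 9 genes (MKI67, CCNB1, NEK2, BUB1, MAD2L1, NUF2, CENPF, TPX2 and NCAPG) the value was below 0 without gas 1 and above 0 without gas 3. No share of all genes is given beside the counts of 18 and 9, so they are not read as particular to mitosis genes. The median over the 45 genes was -0.09 without gas 1 and 0.25 without gas 3.

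**Figure D4:**
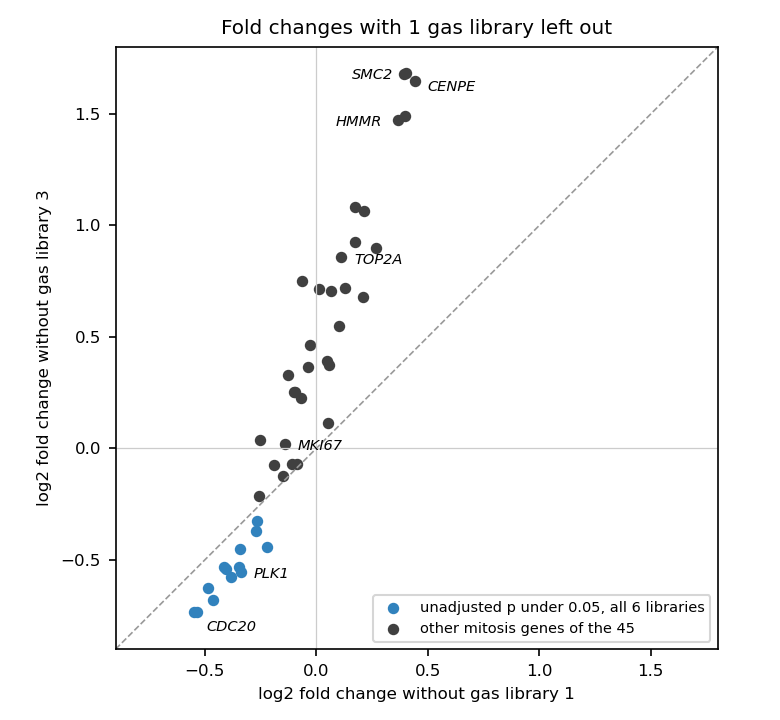
Each point is 1 of the 45 mitosis genes, with its log2 fold change (dCAMP over gas) without gas 1 on the horizontal axis and without gas 3 on the vertical axis; the dashed line marks equal values. The 13 genes with an unadjusted p under 0.05 in all 6 libraries (blue) lie below 0 on both axes. Their groups do not overlap, so leaving out 1 library could hardly change this sign. SMC2 moves from 0.40 to 1.68 and CENPE from 0.44 to 1.65.

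Transcript length moved with these values. Across the 45 genes, Pearson's r between the log2 of the mean transcript length and the log2 ratio of gas 1 to the dCAMP mean was -0.41 and Spearman's rho was -0.39. Between length and log2 fold change r was 0.42 and rho 0.39. The points are genes measured in the same libraries, and no test was made. The median length was 2310 bases for the 13 lower genes, from PTTG1 (811 bases) to ESPL1 (6637 bases), and 2966.5 bases for the other 32. Over all genes the fitted length trend of gas 1 was -0.26 on the log2 scale for long genes (90th percentile of length). It was -0.10 in gas 2 and 0.09 in gas 3, and 0.11 to 0.15 in the dCAMP libraries. With this trend removed from each library, 12 of the 45 genes were lower with an unadjusted p under 0.05, again without AURKB and beside 15.2% of all genes, and the median log2 fold change of the 45 was -0.01. The part of transcript length in the spread of the gas libraries was not tested further.

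The assignment of reads to transcripts also varied between libraries. Of the 45 genes, 27 have more than 1 annotated transcript, and in 10 of them the transcript with the most counts was not the same in all libraries. For CENPE, all counts of gas 1 were given to a transcript of 8776 bases, which held 0 counts in gas 2 and gas 3, where a transcript of 8485 bases held 87.9% and 96.9% of the counts. The CENPE transcript of 8776 bases held 0, 0 and 148 counts in dCAMP 1, 2 and 3. For TTK, 60% of the counts of gas 1 went to a transcript of 3134 bases that held 0 counts in gas 2 and gas 3. In dCAMP 1, 2 and 3 this TTK transcript held 248, 227 and 59 counts. The gene-level counts are the sums over these transcripts, whose sequences were not compared.

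Mitosis genes outside the set were compared in the same way. Of 92 tested, 16 (17.4%) were lower with an unadjusted p under 0.05 and 0 were higher, beside the shares of 13.9% and 6.81% given for all genes, and their median log2 fold change was 0.14. In 24 of the 92 (26.1%) every dCAMP library lay below every gas library, beside 20.9% of all genes. Every dCAMP library lay above in 9 of the 92 (9.78%), beside 19% of all genes. Among cohesin, shugoshin and further condensin genes 3 of 16 were lower, including NCAPD2 and NCAPH2, which encode condensin subunits, with log2 fold changes of -0.34 ± 0.09 and -0.39 ± 0.13 (SE). Among further genes of the anaphase-promoting complex 3 of 17 were lower, including UBE2S, the enzyme that extends its ubiquitin chains (-0.59 ± 0.13), and ANAPC11, its RING subunit (-0.36 ± 0.10). For UBE2S the levels were 296, 252 and 218 CPM in the gas libraries and 161, 184 and 163 CPM in the dCAMP libraries, with no overlap. Among further kinetochore and checkpoint genes 2 of 32 were lower, MAD1L1 and TRIP13. Among further genes of mitotic entry and the spindle 8 of 27 were lower, including PKMYT1, a kinase that inhibits CDK1 (-0.60 ± 0.12), and CDCA3 (-0.53 ± 0.13).

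The regulators and the preceding cell cycle phase were read from further lists as well. Of 21 regulators of cell cycle transcription, 3 (14.3%) were lower and 2 (9.52%) higher with an unadjusted p under 0.05, shares near the 13.9% and 6.81% of all genes. The former included E2F4, a factor of the complex that represses cell cycle genes in quiescence, with a log2 fold change of -0.49 ± 0.11 (SE). The 2 higher genes, named after their values were seen, were RBL2 (0.61 ± 0.21) and TFDP2 (0.39 ± 0.14). Of 47 DNA replication genes, 17 (36.2%) were lower and 0 were higher, beside 13.9% and 6.81% of all genes, with a median log2 fold change of -0.10 beside 0.03 over all genes. MCM5 and MCM2, subunits of the replicative helicase, had the smallest p among them. MCM5 had 303, 279 and 247 CPM in the gas libraries and 188, 195 and 185 CPM in the dCAMP libraries, and a log2 fold change of -0.54 ± 0.10 (SE). The edgeR adjusted p of the genes named here was 0.221 to 0.239. DESeq2 gave an adjusted p under 0.05 to 5 of the DNA replication genes (MCM2, MCM5, MCM7, CDC6 and CDT1), to PKMYT1 among the further mitosis genes and to 0 regulators, all 6 genes lower. Of all genes with an adjusted p in DESeq2, 0.75% were lower at this threshold. The counts of the further mitosis genes and the regulators were near that share. The names MCM7, CDC6 and CDT1 were chosen after their values were seen.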

How the data were processed

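RNA-Seq was carried out on 3 gas and 3 dCAMP libraries of CPEK cells. Per the labels and the methods of the study, the authors used FastQC 0.11.7 and Trimmomatic 0.38, aligned them by HISAT2 2.1.0 (genome CanFam3.1) and used StringTie 2.1.3b to quantify known transcripts. In the deposited tables, counts are unnormalized whole numbers for genes and transcripts, and FPKM values, computed by the authors, are relative to transcript length and to the reads mapped. The TPM columns (6 in each table) were left out. The annotation release and the counting of overlapping genes are not given in the sources used here, and 14 of the 45 loci overlap another gene.

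Counts were fitted over all genes with edgeR 4.0.16 in R 4.3.3 (TMM, filterByExpr, quasi-likelihood test, prior count of 2, Benjamini-Hochberg adjustment). Standard errors are the absolute log2 fold change divided by the square root of F. The code was run on simulated counts with the same spread in both groups, unlike these libraries. That run checks the code only, not the calls made here. DESeq2 1.42.0, limma 3.58.1, other factors and filters, FPKM plus 1, a length correction (lowess, span 0.3), the replicate block and leaving out each library were the alternatives.

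The genes and lists were chosen with earlier results of these data known. Levels in every library were given for the first gene of each of the 7 role groups, the 5 smallest p, the 3 largest and 3 smallest log2 fold changes and the largest spread among gas libraries. Base composition, promoter and protein sequences were not analysed here. Outside the set, PMF1 and POLD2 of the lists were not matched.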

Additional observations from a re-analysis of the deposited data

How the results depend on the processing

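The number of mitosis genes that were lower with an unadjusted p under 0.05 (13) stayed between 10 and 18 in every alternative. The share of all genes lower with such a p ran from 4.7% without dCAMP 3 to 30.4% with voom, the fit that gave 18. With voom and sample quality weights, 35 genes had an unadjusted p under 0.05, 17 of them higher, and 33 an adjusted p under 0.05. In that fit 70 other mitosis genes (main 16) had an unadjusted p under 0.05. The weights were 0.115, 6.73 and 0.192 for gas 1, 2 and 3, and 2.20, 1.40 and 2.18 for dCAMP 1, 2 and 3. The gas side of this fit thus rested mostly on gas 2. With voom 64.9% of all genes had an unadjusted p under 0.05, 34.5% as higher genes, and 60.8% an adjusted p under 0.05. DESeq2 gave 3 genes an adjusted p under 0.05, all lower, beside 0.75% of all genes with an adjusted p. The length correction with the replicate block gave 1 higher gene, TTK, beside 10.6% of all genes. Leaving out 1 library gave 10 to 21 genes with an unadjusted p under 0.05, 0 to 8 higher genes, 0 to 17 with an adjusted p under 0.05, and a median log2 fold change of -0.09 to 0.25. The highest of these values came without gas 3, where 49.2% of all genes had an unadjusted p under 0.05. In that fit 23.8% of all genes were higher with such a p, and 33.1% had an adjusted p under 0.05. For other mitosis genes the range was 5 to 55, with 55 without gas 3, 9 without gas 2, 7 without dCAMP 1 and 5 without dCAMP 3. The shares of all genes in these fits were 49.2%, 8.25%, 8.23% and 6.86%.

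The log2 fold change of MKI67 changed sign with voom (0.076), and ranged from -0.18 to 0.019 with 1 library left out. That of BUB1 changed sign with the length correction (-0.014), with that correction and the replicate block (-0.00046), and ranged from -0.10 to 0.25 with 1 library left out (-0.10 without gas 1 and -0.0062 without dCAMP 2). The cause was not tested. Among the 15 genes given in every library, 210 other values kept their direction and side of the adjusted threshold and 24 passed it. Outside these 15 genes, CENPF and TPX2 changed sign with the length correction (-0.11 and -0.096).

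Library numbers were not taken to pair the samples: the correlation of the deviations of same-numbered libraries was 0.13, 0.024 and 0.048. With the replicate block 12 genes were lower, 0 were higher, and 16 other mitosis genes had an unadjusted p under 0.05, beside 9.31% of all genes lower and 9.56% higher.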

Other observations

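The median over the 45 genes of the log2 CPM, relative to each gene's mean over the 6 libraries, was -0.49 in gas 1, 0.06 in gas 2 and 0.25 in gas 3, and 0.02, 0.16 and 0.06 in dCAMP 1, 2 and 3. The pooled SD within groups was 0.28. Gas 1 was the lowest and gas 3 the highest of the 6 libraries by this measure.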
